A study of Danio rerio with 60 samples.

Results

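Stereocilin and otoferlin are proteins of hair cells, the mechanosensory cells of hearing and balance. Their transcripts were followed here in whole zebrafish larvae exposed to raloxifene or resorcinol. The genes are strc1 (ENSDARG00000079336), which carries a stereocilin name, and every identifier paired with the symbol OTOF, which are ENSDARG00000020581 and ENSDARG00000030832. That makes 3 of the 27281 genes in the raloxifene table and the same 3 of the 27488 genes in the resorcinol table. They were picked with the raloxifene 20.1 µM result in view, where strc1 and ENSDARG00000020581 were lower than in the controls, so the values of these 3 genes at that dose are given as a description, and the calls at that dose support nothing about them.

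The series holds 60 RNA-seq samples in 12 groups of 5, each sample a pool of 20 whole larvae of the AB/Tub background exposed from 72 to 120 hours post-fertilization. Raloxifene is a drug that modulates estrogen receptors, and its doses were 0.00201, 0.0201, 0.201, 2.01 and 20.1 µM, set against larvae in 0.5% carrier. Resorcinol is a small phenolic compound that inhibits thyroid peroxidase, and its doses were 0.0405, 0.405, 4.05, 40.5 and 405 µM, set against larvae in 1% carrier. The carrier is not named in the labels, and all larvae share one genetic background with no transgene listed. Because each pool holds whole bodies, a lower level in these bulk samples could be fewer cells of a type or less RNA per cell, which cannot be told apart.

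The values are read counts divided by a size factor per library, written below as normalized counts, and fold changes are differences of log2(normalized count + 1). Raloxifene libraries held 7436164 to 10980576 reads in genes. Resorcinol libraries held 7778291 to 12127309 reads except for replicate 1 at 405 µM, which held 30737132, so results at that dose are also given without it. Replicates with the same number deviated together in all groups of a compound, so a second fit that blocks on that number (the replicate block) is printed where it changes a call. A gene was called when its Benjamini-Hochberg adjusted p was below 0.05 over all genes tested, 19241 in the raloxifene table and 19583 in the resorcinol table.

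Hair cells carry a bundle of actin-filled stereocilia that opens transduction channels when deflected, and they release glutamate from ribbon synapses. In zebrafish larvae they sit in the inner ear and in the lateral line neuromasts at the body surface. In the mouse, stereocilin lies in the connectors that join neighbouring stereocilia and in the links between the tallest stereocilia and the overlying membrane. Otoferlin is a large calcium-binding protein of the ferlin family needed for exocytosis of synaptic vesicles at the ribbon. Loss of either causes inherited hearing loss in humans. Zebrafish carry a pair of otoferlin genes, otofa and otofb, but the tables available here do not say which identifier is which, so the identifiers are used.

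Genes of the hair cell lists could be read in these whole-larva libraries, though several at few reads. Some are also expressed in neurons or muscle, so their reads need not come from hair cells. Of 95 hair cell genes in the raloxifene table, 81 passed the minimum level of 10 normalized counts in 5 libraries. Of all 27281 genes, 19241 passed it. None of the 95 was at 0 in every control and 20.1 µM library. POU4F3, a transcription factor that mammalian hair cells need to mature, was at 62.8 ± 36.4 (SD, n = 5) in the raloxifene controls. The channel subunit TMC1 was near the minimum, at 13.2 ± 6.94 normalized counts. All 3 of the stereocilin and otoferlin genes passed the minimum in both tables.

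strc1 was lowest at the highest raloxifene dose. In control replicates 1 to 5 its normalized counts were 52.4, 49.8, 44.7, 37.0 and 40.8, a mean of 44.9 ± 6.31 (SD, n = 5). At 20.1 µM they were 36.4, 26.8, 19.2, 13.3 and 26.1, a mean of 24.4 ± 8.73. All 5 treated libraries lay under the lowest control, and each lay under the control of its own number. The mean difference was -0.92 on the log2 scale, or 1.89-fold, with pairs running from -1.42 to -0.51. Replicate 4 showed the widest gap of the 5 pairs and replicate 1 the narrowest. These values rest on few reads, 37 to 46 per control library and 16 to 32 per library at 20.1 µM. Over all genes tested, 0.177% had a 20.1 µM group entirely below the controls and 4.72% were lower in all 5 pairs, from which nothing is read about strc1 since that contrast chose it.

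Below 20.1 µM, the group means of strc1 were 34.9 ± 5.89 at 0.00201 µM, 42.5 ± 11.7 at 0.0201 µM, 46.4 ± 6.16 at 0.201 µM and 41.2 ± 4.66 at 2.01 µM, each with n = 5. The order from high to low was 0.201 µM, control, 0.0201 µM, 2.01 µM, 0.00201 µM and 20.1 µM, and the libraries of every pair of neighbours in that order overlapped. The lowest dose is second from the bottom, with all 5 libraries under their controls by a mean of 0.36 log2 units. No difference between the 4 lower doses and the control passed limma's F test, with adjusted p = 1.00 without the replicate block and 0.774 with it. Against 2.01 µM rather than the control, strc1 at 20.1 µM was 1.74-fold lower by the means, lower in 5 of 5 pairs, with the groups just overlapping. That comparison uses the 20.1 µM libraries that chose strc1, and its share over all genes was not counted.

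The OTOF gene ENSDARG00000020581 was also lower in every 20.1 µM library than in the control of the same number, with a wide spread between replicates. Over all genes tested 4.72% were lower in all 5 pairs, and nothing is read from this since that contrast chose the gene. Control values were 56.7, 102, 132, 168 and 88.7 normalized counts, a mean of 109.5 ± 42.6 (SD, n = 5). At 20.1 µM they were 46.7, 44.7, 57.5, 144 and 64.1, a mean of 71.4 ± 41.4. The groups overlap: replicate 4 is high in both, at 168 and 144, and the lowest control, 56.7, lies under 3 of the treated libraries. Pair differences ran from -1.18 to -0.22 on the log2 scale with a mean of -0.66, or 1.58-fold. Against 2.01 µM, its highest group mean, the difference was wider, 2.09-fold, and lower in 5 of 5 pairs. That comparison uses the same 20.1 µM libraries, and its share over all genes was not counted.

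At lower raloxifene doses ENSDARG00000020581 lay at or above its control mean. Its means were 126.9 ± 51.2, 110.9 ± 58.7, 128.0 ± 50.5 and 145.8 ± 55.1 from the lowest dose to 2.01 µM (n = 5 each). The order from high to low was 2.01, 0.201, 0.00201 and 0.0201 µM, then the control and 20.1 µM, and all neighbours overlapped. At 2.01 µM it was higher than the control in 4 of 5 pairs by 0.40 log2 units, which did not pass limma's test with the replicate block (adjusted p = 0.429). The F test over the 4 lower doses gave adjusted p = 1.00 without the block and 0.630 with it.

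The OTOF gene ENSDARG00000030832 did not follow the other. Its control values were 476, 324, 314, 231 and 419.7 normalized counts, a mean of 352.8 ± 96.2 (SD, n = 5). At 20.1 µM the values were 393, 385, 348, 230.3 and 332, a mean of 337.5 ± 64.9. The groups overlap throughout, 3 of 5 pairs were lower, and the mean log2 difference was -0.044. From the lowest dose up, the means were 327 ± 46.4, 349.7 ± 82.3, 357.7 ± 57.2 and 354 ± 92.0, a narrower range than the replicates of any group span. The F test over these 4 doses gave adjusted p = 1.00, and 0.935 with the replicate block.

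**Figure D1:**
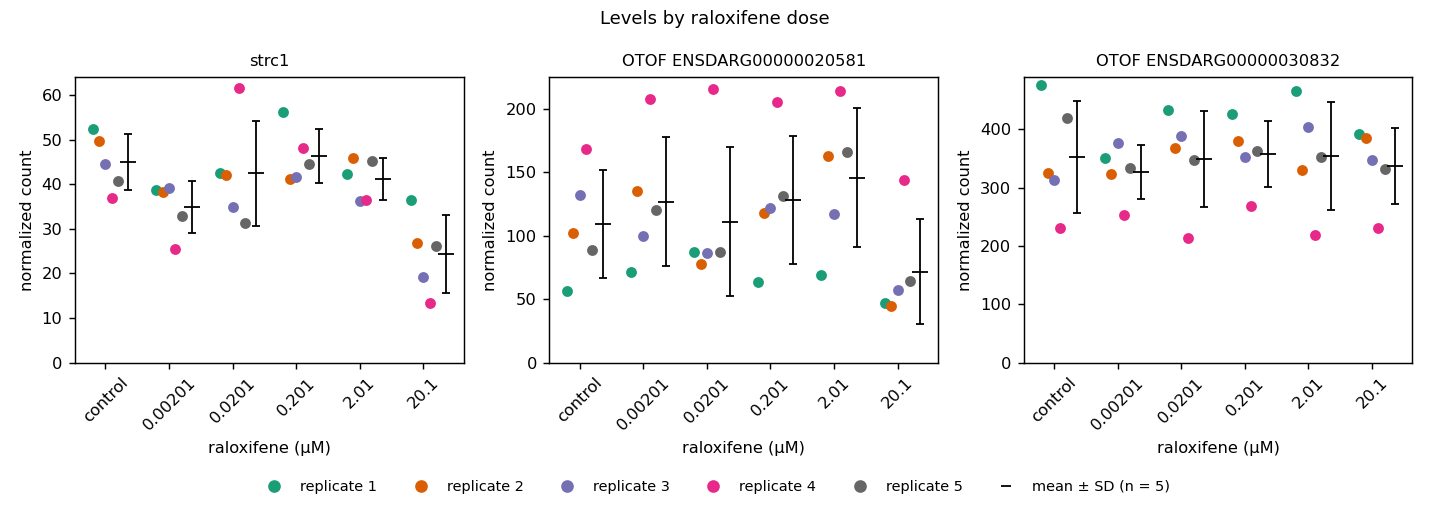
Normalized counts of strc1 and the OTOF genes in each raloxifene library (y axis) by dose in µM (x axis); points are libraries coloured by replicate number, and bars are the mean ± SD of 5. strc1 at 20.1 µM lies at 13.3 to 36.4 against 37.0 to 52.4 in the controls, and replicate 4 is the highest OTOF ENSDARG00000020581 value and the lowest ENSDARG00000030832 value in all 6 groups.

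In the fit without the replicate block, 0 of the 3 genes were called at 20.1 µM, where 18 of all genes tested (0.0936%) were called. With the block 2 of the 3 were, beside 242 of all genes (1.26%). With the block the count was 0 of 3 without replicate 2 or without replicate 3, and 1 of 3 without replicate 4, without replicate 5 or with edgeR. These counts restate how the genes were picked and test nothing. Across the 4 lower raloxifene doses, 0 of 3 were called at any dose by limma, with or without the block. Of all genes, the block fit called 0.0987%, 0%, 0.0156% and 0.0208% at these doses from the lowest up, and 0.0208% in the F test over them. At an unadjusted p below 0.05 the count was 1 of 3 with the block at 2.01 µM and 0 of 3 at each of the other lower doses, and 9.86% of all genes had such a p at 2.01 µM with the block.

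The OTOF genes ran in opposite directions between replicate numbers rather than doses. Over all genes tested, replicate number took a median of 72.7% of the variance of log2 levels in the raloxifene table and 66.4% in the resorcinol table. How many other gene pairs ran opposite in this way was not counted. In the raloxifene table replicate 4 was the highest of 5 for ENSDARG00000020581 in 6 of 6 groups and the lowest for ENSDARG00000030832 in the same 6. Averaged over the groups, replicate 4 stood at 193 normalized counts for ENSDARG00000020581 and replicate 1 at 65.8. For ENSDARG00000030832 the same replicates stood at 236 and 424. In the resorcinol table the pattern came back with another number: replicate 5 was highest for the first and lowest for the second in 6 of 6 groups, at means of 232 and 262. Replicate 1 there stood at 82.5 and 452.

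Across the 30 libraries of a table the log2 levels of the OTOF genes had a Pearson r of -0.74 in the raloxifene table and -0.74 in the resorcinol table. After each replicate number's mean was subtracted, r was -0.19 and -0.18. These libraries share controls, doses and replicate numbers, so r is a description. What the replicate number stands for (a clutch, a plate or a day) is not in the labels, and its part in the OTOF levels was not tested beyond these values.

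**Figure D2:**
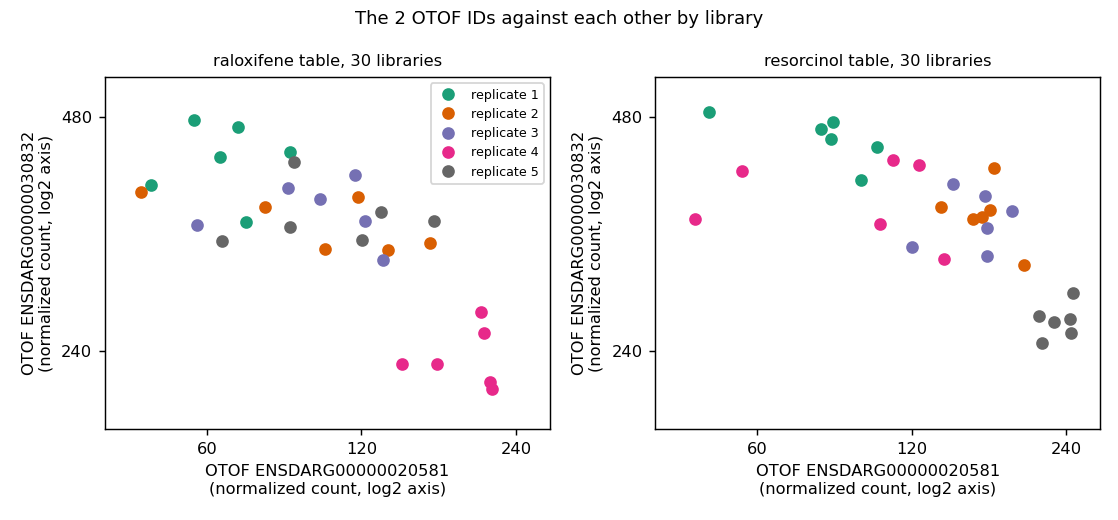
Normalized counts of OTOF ENSDARG00000020581 (x axis, log2) against OTOF ENSDARG00000030832 (y axis, log2), 1 point per library coloured by replicate number, raloxifene table left and resorcinol table right. Replicate 4 (left) and replicate 5 (right) form the lower right corner and replicate 1 the upper left, with r = -0.74 in both tables.

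The share of variance taken by replicate number separated strc1 from the OTOF genes. For ENSDARG00000030832 the replicate number took 84.2% of the variance of log2 levels in the raloxifene table and the dose group 1.65%. For ENSDARG00000020581 these shares were 59.3% and 28.0%. For strc1 they were 10.95% and 58.4%, against medians over all genes tested of 72.7% and 5.75%. Only 1.18% of genes tested had a smaller replicate share than strc1. strc1 held 16 to 66 reads per raloxifene library, and the part of so few reads in its replicate share was not tested. In the resorcinol table the replicate number took 46.4% for strc1, 75.0% for ENSDARG00000020581 and 83.0% for ENSDARG00000030832, and the dose group took 15.7%, 5.61% and 2.17%. There 25.1% of genes lay below strc1 in replicate share. The raloxifene shares of strc1 and ENSDARG00000020581 include the 20.1 µM libraries that chose them. Over the other 25 libraries the replicate number took 12.8% for strc1, with 1.09% of genes below, 76.9% for ENSDARG00000020581 and 83.7% for ENSDARG00000030832, beside a median of 76.4%. The dose group then took 29.5%, 7.78% and 1.67%, beside a median of 4.63%, and no F test of these genes over the lower doses passed.

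None of the 3 genes passed the test at any resorcinol dose, and these contrasts were not used to pick them. strc1 was at 48.5, 42.2, 55.0, 47.7 and 46.8 normalized counts in the controls, a mean of 48.0 ± 4.63 (SD, n = 5). At 405 µM it was at 50.8, 54.0, 58.9, 37.9 and 40.2, a mean of 48.4 ± 9.01. The libraries overlap, with a log2 difference of -0.0054 and a 95% interval of -0.46 to 0.45 in limma's fit, or -0.34 to 0.33 with the replicate block. Without the deeply read replicate 1 the difference was -0.028.

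At the other resorcinol doses strc1 averaged 64.4 ± 19.1, 54.9 ± 14.7, 57.0 ± 10.3 and 52.7 ± 15.1 from 0.0405 to 40.5 µM (n = 5 each). The order from high to low was 0.0405, 4.05, 0.405, 40.5 and 405 µM and then the control, with all neighbours overlapping. The highest of these, 0.0405 µM, exceeded the control in 4 of 5 pairs by 0.37 log2 units and was not called with the replicate block (limma, unadjusted p = 0.0306, adjusted p = 0.565). With the block 8.6% of all genes had an unadjusted p below 0.05 at that dose. Its range was 40.6 to 88.1, wider than that of the controls.

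The OTOF gene ENSDARG00000020581 ran at 95.8, 171, 188, 56.0 and 228 normalized counts in the resorcinol controls, a mean of 147.7 ± 70.1 (SD, n = 5). At 405 µM the values were 48.4, 173, 167, 45.5 and 215, a mean of 129.9 ± 78.0. It was lower in 4 of 5 pairs, mostly through replicates 1 and 4, which were also the low controls. The log2 difference was -0.30, with an interval of -1.18 to 0.58, or -0.72 to 0.12 with the replicate block (adjusted p = 0.627 by limma). Without replicate 1 of the treated group it was -0.018, though the low control of that number stayed in the fit. With the block and 1 number left out of every group, it ran from -0.38 to -0.13. From 0.0405 to 40.5 µM the means were between 146 and 157.

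The OTOF gene ENSDARG00000030832 held 398, 364, 363, 409 and 261 normalized counts in the resorcinol controls, a mean of 359 ± 58.4 (SD, n = 5). At 405 µM it held 487, 412, 379, 354 and 245, a mean of 375.6 ± 88.2. The groups overlap, and the log2 difference was 0.047 with an interval of -0.34 to 0.44, or -0.13 to 0.22 with the replicate block. Without the deeply read replicate 1, with the control of that number kept, it was -0.055. With the block and 1 number left out of every group, it ran from -0.013 to 0.11.

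limma's F test over all 5 resorcinol doses gave an adjusted p of 1.00 for each of the 3 genes. With the replicate block it gave 0.798 for strc1, 0.815 for ENSDARG00000020581 and 0.936 for ENSDARG00000030832. Over all genes this test called 8 (0.0409%) without the block and 44 (0.225%) with it. At 405 µM alone 6 genes were called (0.0306%), or 64 with the block (0.327%), and 0 of the 3 by limma, edgeR or DESeq2. At 40.5 µM all genes gave 0.00511% and 0.0664%, at the 3 lowest doses 0%, and 0 of the 3 were called at each. The count at an unadjusted p below 0.05 was 0 of 3 in the limma fits at 405 µM and 1 of 3, strc1, at 0.0405 µM with the block. Whether the compounds differ in their effect was not tested, since the tables were normalized separately and the doses differ.

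**Figure D3:**
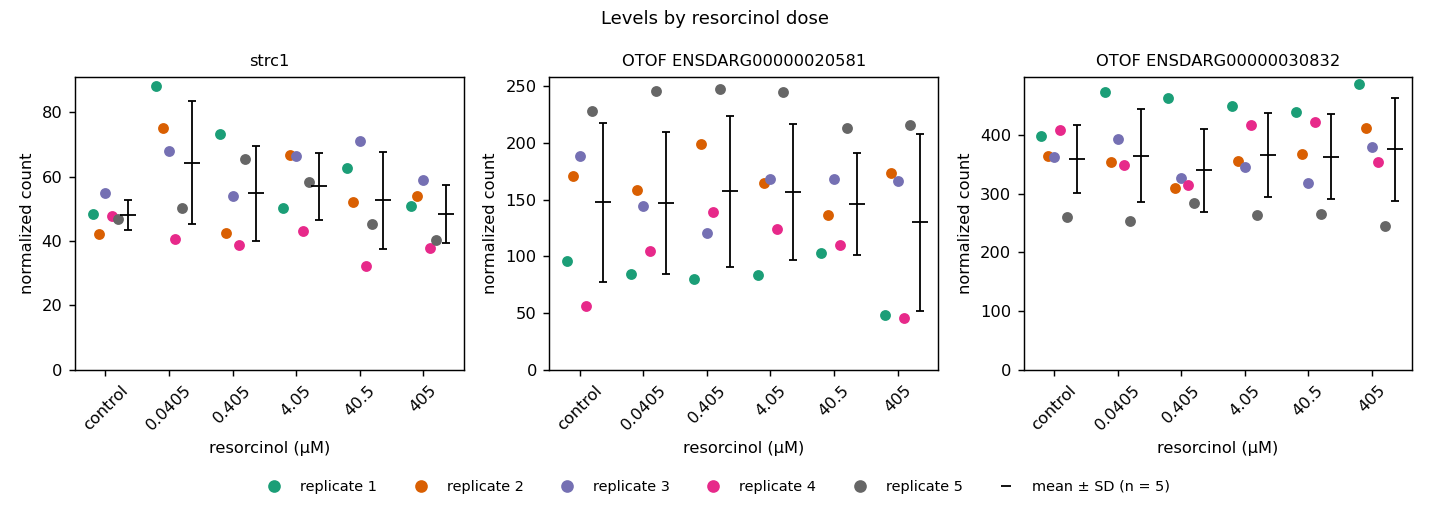
Normalized counts of strc1 and the OTOF genes in each resorcinol library (y axis) by dose in µM (x axis); points are libraries coloured by replicate number, and bars are the mean ± SD of 5. strc1 at 405 µM (48.4 ± 9.01) lies at its control level (48.0 ± 4.63), and replicate 5 is highest for OTOF ENSDARG00000020581 and lowest for ENSDARG00000030832 in all 6 groups.

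The other hair cell genes were read from lists of bundle and transduction genes, ribbon synapse genes, hair cell transcription factors and hair cell calcium-binding proteins. The lists were drawn up with earlier results of these data known, so counts over them give no independent support. At raloxifene 20.1 µM, 1 of 81 tested was called lower without the replicate block (1.23%) and 3 of 81 with it (3.70%), against 0.0936% and 1.26% of all genes. Counting lower calls alone, all genes gave 0.0416% without the block and 0.385% with it. None of the 81 was called higher, beside 0.873% of all genes with the block. Their median log2 difference was -0.105, with 57 of 81 below 0, beside a median of -0.011 over all genes tested. At an unadjusted p below 0.05 there were 4 without the block and 13 with it, where all genes gave 2.32% and 12.3%.

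All 3 calls were calcium-binding proteins. pvalb8, a parvalbumin that marks zebrafish hair cells, went from 1815 to 2659 normalized counts in the controls to 778 to 1231 at 20.1 µM. Its groups did not overlap, where 0.177% of all genes tested had a 20.1 µM group entirely below the controls. It fell 2.32-fold, by 1.22 on the log2 scale, with adjusted p = 2.56e-04 in limma and 5.77e-07 with the replicate block. The fall of pvalb8 was known when the list was drawn up and gives no independent support.

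s100s, a small calcium-binding protein of the inner ear and lateral line, was at 179, 245, 235, 272 and 209 normalized counts in the controls and 95.6, 69.3, 61.0, 212 and 68.8 at 20.1 µM. Replicate 4 again stood above the other treated libraries, as it did for ENSDARG00000020581. s100s fell by 1.31 on the log2 scale with the replicate block (limma, adjusted p = 1.14e-05) and missed the threshold without it (adjusted p = 0.0908). Without replicate 4 of the treated group it was called in the fit without the block too, at -1.62 and adjusted p = 0.00377. That fit kept control replicate 4, the highest of the controls, which widens the difference. With replicate 4 left out of every group, the block fit gave -1.55.

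s100t, its close relative, went from 292, 586, 514, 434 and 437 to 226, 285, 312, 391 and 400.0 normalized counts. It was lower in all 5 pairs, as were 4.72% of all genes tested, by 0.48 log2 units on average. It passed with the block (limma, adjusted p = 0.0394). The s100s and s100t transcripts may share reads, since how multiply mapped reads were treated is not given in the sources used here. The calretinin genes calb2b and CALB2 showed mean log2 differences of -0.14 and -0.15 and were not called. The parvalbumin pvalb9 averaged 115 ± 37.3 in the controls and 121 ± 12.6 at 20.1 µM (SD, n = 5), higher in 4 of 5 pairs and not called. The summed level of the 6 calcium-binding genes was 4100 to 6071 in the controls and 2558 to 4410 at 20.1 µM (ranges of 5), with means of 5091 and 3360. That sum includes pvalb8, at means of 2192 and 943, whose fall was known when the list was drawn up.

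**Figure D4:**
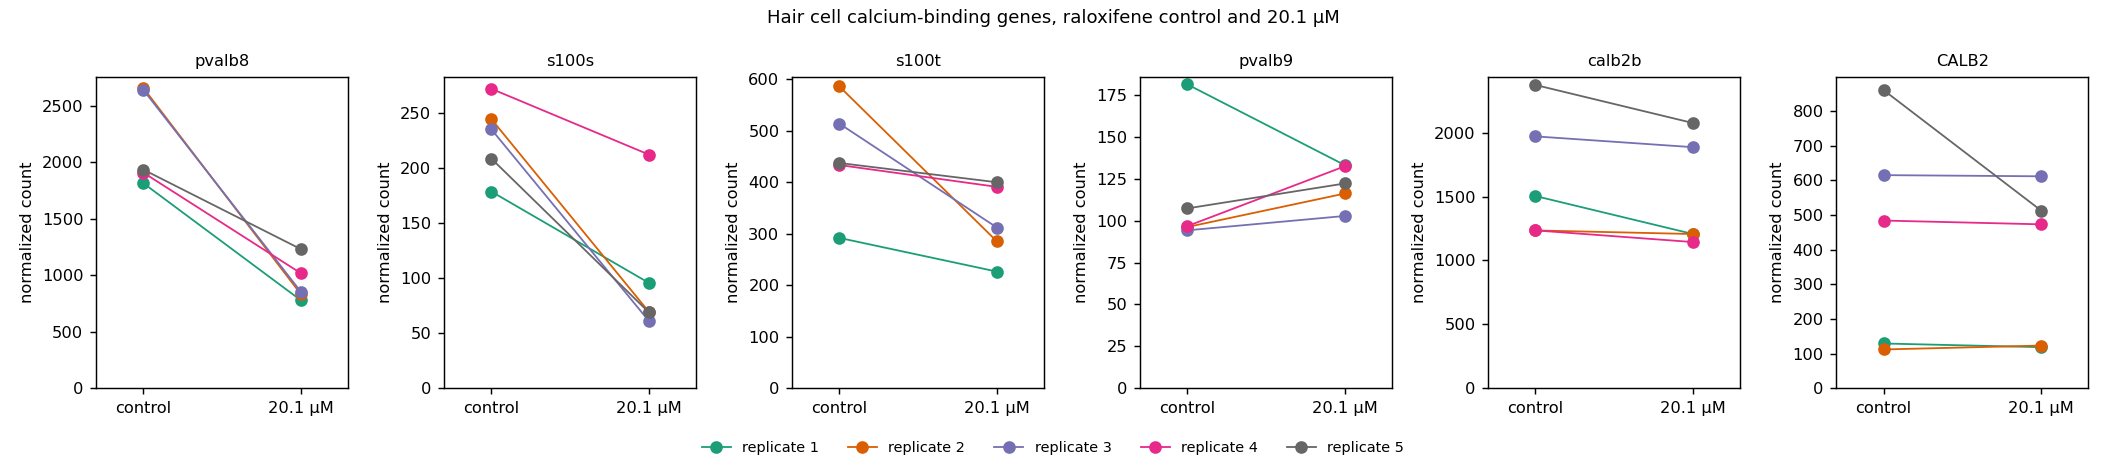
Normalized counts (y axis) of the 6 hair cell calcium-binding genes in the raloxifene control and 20.1 µM libraries (x axis); lines join libraries with the same replicate number, n = 5. pvalb8, s100s and s100t are lower in all 5 pairs, as are 4.72% of all genes tested. calb2b and CALB2 differ by -0.14 and -0.15 log2 units on average, and pvalb9 is higher in 4 of 5 pairs.

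No bundle or transduction gene was called by limma among 38 tested, with a median log2 difference of -0.093. Over all genes 0.0936% were called without the replicate block and 1.26% with it. At these shares a list of this size or smaller would often hold no call, so 0 calls do not set it apart. MYO6 (ENSDARG00000044016), an unconventional myosin at the base of stereocilia, was at 599 ± 69.5 normalized counts in the controls and 562 ± 55.2 at 20.1 µM (SD, n = 5). ATP2B1 (ENSDARG00000012684), a plasma membrane calcium pump, was at 1016 ± 196 and 994 ± 178. atp2b1b, another such pump, was at 690.0 ± 315 and 620.0 ± 189. XIRP2 (ENSDARG00000071113), an actin-binding protein that muscle also makes, was at 537 ± 336 and 648 ± 300.

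LOXHD1 (ENSDARG00000074638), a stereociliary protein, stood at 60.4 ± 26.3 and 34.9 ± 14.2 (SD, n = 5) and was named after its values were seen. It was lower in 5 of 5 pairs, as were 4.72% of all genes tested, by a mean of 0.76 log2 units. It was not called by limma (adjusted p = 0.0666 with the replicate block). DESeq2 with the block called it (adjusted p = 0.0259), beside 1.65% of all genes. The synaptic list had 0 of 25 called by limma, beside 1.26% of all genes with the block, and a median of -0.059. SNAP25, a membrane fusion protein of neurons as well as hair cells, was at 7979 ± 1627 and 7878 ± 1560 for ENSDARG00000020609, and at 4188 ± 1222 and 3829 ± 921 for ENSDARG00000058117. pclob, a piccolo gene of the synaptic active zone, was at 2285 ± 1023 and 2429 ± 964.

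The transcription factor list had 0 of 12 called, beside 1.26% of all genes with the replicate block. Its median was -0.207, with 10 of 12 below 0. POU4F3, named after its values were seen, was lower in 5 of 5 pairs, as were 4.72% of all genes tested. Its mean difference was -0.61 log2 units, and it was not called with the replicate block (limma, adjusted p = 0.205). INSM1, also active in other neuroendocrine and neural precursors, was at 422 ± 99.96 and 343 ± 58.8 for ENSDARG00000091756 and 275 ± 74.1 and 247 ± 42.5 for ENSDARG00000053301. EMX2, which sets hair cell orientation, was at 307 ± 87.5 and 300.3 ± 76.2, and PROX1 (ENSDARG00000055158) at 242 ± 63.0 and 216 ± 32.5.

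At resorcinol 405 µM, 0 of 83 tested hair cell genes were called without the replicate block and 1 with it (1.20%), against 0.327% of all genes with the block, of which 0.174% were called higher. The median log2 difference of the 83 was -0.077, with 56 of 83 below 0, beside a median of 0.0011 over all genes tested. The transcription factor list had a median of -0.143 with 11 of 12 below 0. The calcium-binding list had a median of -0.220 with 5 of 6 below 0. The median of the hair cell lists together was below 0 with both compounds. The share of all genes below 0 was not counted, and the resorcinol medians include the deeply read replicate 1. Since the lists were drawn up with earlier results known, these values give no independent support. An unadjusted p below 0.05 was found for 4 of 83 without the block and 15 of 83 with it, where all genes gave 1.54% and 10.8%. edgeR and DESeq2 without the block also called 0. The 1 gene was cabp2a, a calcium-binding regulator of the calcium channel at the ribbon that retinal neurons also express. Its control values were 383, 239, 215, 397 and 123 normalized counts, and the 405 µM values were 1001, 357, 331, 583 and 174. It rose in 5 of 5 pairs by 0.73 log2 units (limma with the block, adjusted p = 0.0126), and the share of all genes higher in all 5 pairs was not counted. The deeply read replicate 1 had the largest difference of the 5, and without replicate 1, as without replicate 2, cabp2a was not called with the block. pvalb8 was at 1989 ± 329 and 1507 ± 332 (SD, n = 5) and s100s at 259 ± 109 and 204 ± 98.4, and neither was called.

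**Figure D5:**
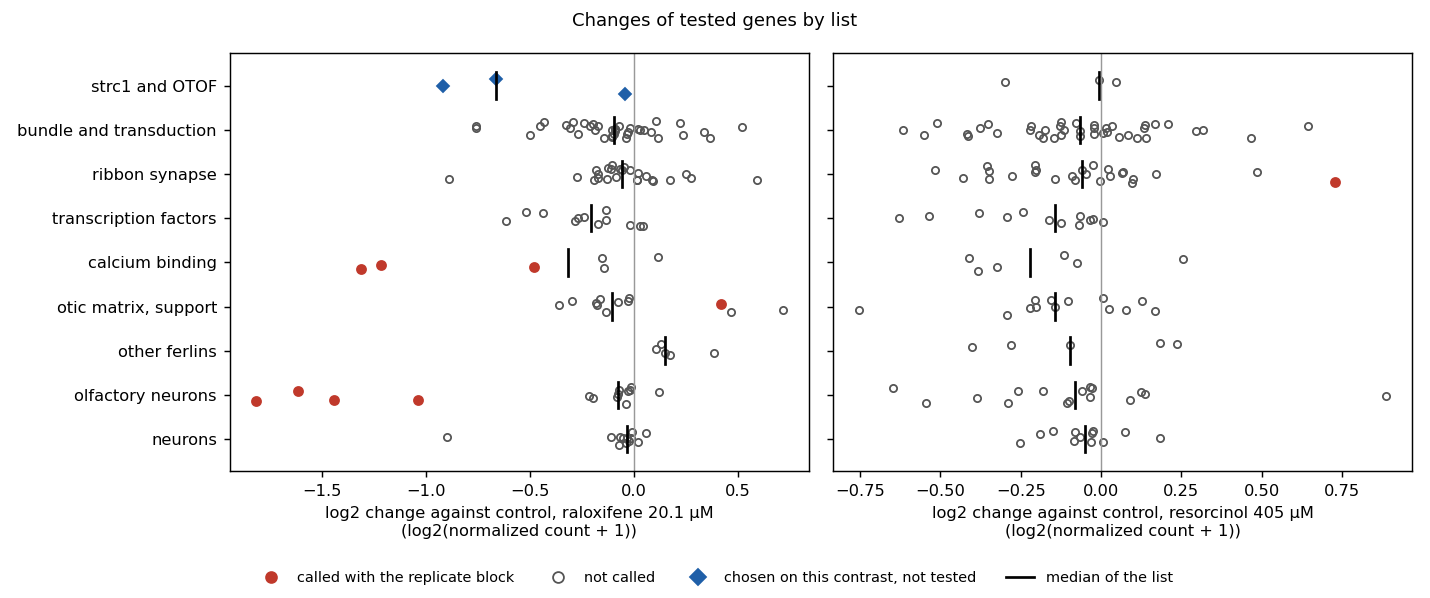
Log2 difference from control on log2(normalized count + 1) (x axis) of each tested gene by list (y axis), raloxifene 20.1 µM left and resorcinol 405 µM right; filled red circles are called with the replicate block, blue diamonds are the 3 genes chosen on this contrast, and black bars are medians. In the raloxifene plot the calcium-binding and olfactory lists hold the called genes furthest below 0, and in the resorcinol plot only cabp2a is called.

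Lists of neighbouring and related cell types were read in the same way. Among 12 tested genes of the otic matrix and supporting cells, stm, which encodes the otolith protein starmaker, was at 952 ± 253 normalized counts in the raloxifene controls and 1265 ± 274 at 20.1 µM (SD, n = 5). It rose by 0.42 log2 units in 5 of 5 pairs with the replicate block (limma, adjusted p = 0.0453), and it was not called without the block or by edgeR with it. DESeq2 with the block called 1 of the 12 genes higher, beside 1.65% of all genes called in either direction. The share of all genes higher in all 5 pairs was not counted. The matrix protein SPARC, widely expressed, was at 5065 ± 1361 and 4893 ± 857, and ISL1 (ENSDARG00000004023) at 1103 ± 324 and 991 ± 210.4. The other ferlins are membrane repair and fusion proteins. Of these 0 of 5 were called, beside 1.26% of all genes with the block, and the median was 0.151. Their levels were 42.8 ± 11.6 and 46.9 ± 8.0 for DYSF, 117 ± 44.4 and 123 ± 18.4 for MYOF (ENSDARG00000006112), and 52.1 ± 31.97 and 53.1 ± 19.5 for FER1L6.

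Some genes of olfactory sensory neurons were lower beside the hair cell calcium-binding genes. At raloxifene 20.1 µM 2 of 14 were called lower without the replicate block and 4 with it, beside 0.0416% and 0.385% of all genes, and 3 with edgeR or DESeq2 and the block. The falls of pvalb5, S100Z and the channel subunits were known when this list was drawn up, so the count gives no independent support. pvalb5, a parvalbumin, fell from 684 ± 59.2 to 194 ± 24.1 normalized counts (SD, n = 5), by 1.82 log2 units. S100Z, a calcium-binding protein of crypt neurons, fell from 75.6 ± 9.31 to 28.3 ± 10.3, by 1.44. The channel subunits cnga4 and CNGA2 (ENSDARG00000100436) fell by 1.61 and 1.04 with the block (limma, adjusted p = 0.0072 and 0.0344), from only 18.5 ± 8.93 and 13.8 ± 6.27 normalized counts in the controls.

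The olfactory genes GNG13 (ENSDARG00000037921), at 1114 ± 325 and 1048 ± 268, gng8, at 201 ± 66.5 and 192 ± 66.4, and cngb1b, at 112 ± 19.0 and 124 ± 34.4, were not called. The summed level of 21 olfactory genes was 2689 to 3508 in the controls and 2035 to 2642 at 20.1 µM, with means of 3121 and 2401. That sum includes pvalb5, at means of 684 and 194, whose fall was known when the list was drawn up. It therefore does not give the level of the set apart from that gene. None of the 21 was at 0 in all 10 libraries. Among 12 general neuron genes 0 were called, beside 1.26% of all genes with the block. The list had a median of -0.035 and summed levels of 21671 to 35297 and 20995 to 32360. SYT1 (ENSDARG00000030614), a synaptic vesicle calcium sensor, was at 7275 ± 1801 and 7362 ± 1639, ELAVL4 at 4282 ± 768 and 4090 ± 803, and SV2A at 3631 ± 766 and 3528 ± 667. The part of olfactory or other cells in the levels of strc1 and the OTOF genes was not tested. At resorcinol 405 µM no gene of the otic, ferlin, olfactory or neuron lists was called with or without the block. Over all genes 0.0306% were called without the block and 0.327% with it.

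Genes whose levels ran most like those of each gene were taken as the 5 with the highest Pearson r over the 30 raloxifene libraries after each replicate number's mean was subtracted. For strc1 these were S100Z (0.80), krt1-19d (0.79), pvalb5 (0.76), PLS1 (0.74) and chia.3 (0.73). PLS1 encodes plastin, an actin bundler found in stereocilia and gut microvilli. krt1-19d is a keratin gene, and it fell from 270 ± 206 to 102 ± 59.4 normalized counts at 20.1 µM (log2 difference -1.13, adjusted p = 0.00745 by limma with the replicate block). The 20.1 µM libraries that chose strc1 enter r, so genes lower at that dose rank high by construction. Over the other 25 raloxifene libraries, which also entered the ranking, r was 0.55 for krt1-19d and 0.24 to 0.29 for the other genes. Over the resorcinol libraries, which did not enter it, r was between 0.0019 and 0.32.

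For the OTOF gene ENSDARG00000020581 the closest were si:dkey-205h13.2 (0.87), fthl30 (0.87), pvalb8 (0.86), ENSDARG00000117486 (0.86) and si:dkeyp-110c7.4 (0.86). Their r with ENSDARG00000020581 over the resorcinol libraries was 0.79, 0.61, 0.65, 0.55 and 0.29. The 20.1 µM libraries enter this ranking too. Over the other 25 raloxifene libraries, which also entered the ranking, r was 0.67 to 0.77. Only the resorcinol libraries did not enter it. si:dkey-205h13.2 went from 1553 ± 498 to 789 ± 249 normalized counts at raloxifene 20.1 µM, and the ferritin gene fthl30 from 36.8 ± 8.43 to 19.5 ± 2.98 (SD, n = 5). For ENSDARG00000030832 the closest were cadps2 (0.77), dalrd3 (0.75), ubtf (0.74), EXT1 (0.74) and NKX6-3 (0.73). cadps2, which primes dense-core vesicles for release, was at 249 ± 106 and 244 ± 93.4. The log2 differences of these 5 at 20.1 µM ran from -0.18 to 0.051. Over the resorcinol libraries their r ran from -0.15 for NKX6-3 to 0.57 for ubtf.

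strc1 and ENSDARG00000020581 shared part of their variation in the raloxifene table, with r = 0.58 after the replicate means were subtracted and 0.14 before. In the resorcinol table r was 0.00048 and 0.09. The raloxifene value includes the 20.1 µM libraries in which both genes were lower and which chose them, so it supports nothing about them. Over the other 25 raloxifene libraries r was 0.15 after the means were subtracted. The symbol strc belongs to a separate gene, ENSDARG00000105391, which was at 5.46 ± 2.35 normalized counts in the raloxifene controls and 7.30 ± 8.51 at 20.1 µM (SD, n = 5) and was too low to read.

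In the RefSeq gene order of the GRCz12tu assembly, which is not the GRCz11 build of the tables, 2 of the 4 nearest coding genes around strc1 could be matched by symbol. golm2 was at 555 ± 198 and 558 ± 171 normalized counts in the raloxifene control and 20.1 µM groups, and cilp at 295 ± 140 and 289 ± 99.6 (SD, n = 5). Neither was called, with log2 differences of 0.016 and 0.053.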

How the data were processed

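The authors deposited 1 table of normalized counts per compound, a signal never below 0 that holds read counts divided by a size factor per library. Per the submitters' processing notes, cutadapt, STAR, DESeq2 and the GRCz11 build were used, with no versions or order given. Per the labels' protocols, total RNA was extracted from 20 pooled larvae with a Norgen kit and DNase, and libraries were made with the Illumina TruSeq Stranded mRNA kit. Dividing by the smallest step of each library turned 100% of the values into whole reads within 0.1 read, which gave the depth per library and the counts for edgeR and DESeq2. Groups were taken from the description of each sample; in the titles of those dosed with resorcinol, raloxifene's short name appears instead. Whether replicates are separate clutches is not given, so each p-value reflects only pool-to-pool spread, which may be technical.

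log2(normalized count + 1) was fitted in limma 3.58.1 (R 4.3.3) with an intensity trend, 30 libraries and 6 groups per compound, for genes at 10 or more in at least 5 libraries, with Benjamini-Hochberg adjustment over all of them. Same-numbered libraries of a compound deviated together from their group means in all 75 pairs of each table (lowest correlation 0.344 for raloxifene and 0.194 for resorcinol), so a blocked fit (replicate number as a term) is given where it changes a call. edgeR 4.0.16, DESeq2 1.42.0, other pseudocounts, filters and scalings, and libraries left out in turn were alternatives. The fits were also run on simulated data with the same dispersion set for every gene, and no result above rests on that run. Figures were drawn with matplotlib 3.10.9.

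The genes and lists were chosen with earlier results of these data known. Named genes are strc1, the OTOF identifiers, list genes called at the highest dose of a compound, the 3 genes of each list with the highest normalized counts in the controls of either table, and the 5 genes most like each of the 3. POU4F3, TMC1, LOXHD1, pvalb9, SLC26A5, strc and the neighbours of strc1 were added after their values were seen. A gene symbol was found for 24960 of 27281 identifiers in the raloxifene table and 25126 of 27488 in the resorcinol table. The counts were not scaled to transcript length, so levels do not rank transcripts by abundance across genes. No genome or sequence table was used here, so no sequence is shown.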

Additional observations from a re-analysis of the deposited data

Results flagged for a closer look

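Among 36 groups of 5 values (the 3 genes in 12 groups), 3 held a value far from the other 4, by a gap of more than 0.71 of the group's range; chance alone gives about 1 in 20 groups. OTOF ENSDARG00000020581 stood at 216 normalized counts in replicate 4 at raloxifene 0.0201 µM, where the others were at 78.1 to 87.3. The same gene stood at 144 in replicate 4 at raloxifene 20.1 µM, where the others were at 44.7 to 64.1. OTOF ENSDARG00000030832 stood at 464 in replicate 1 at resorcinol 0.405 µM, where the others were at 285 to 326. In each case that replicate number was also the highest of its gene in most groups of that compound, in 6 of 6, 6 of 6 and 5 of 6.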

How the results depend on the processing

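The log2 differences of the 3 genes at raloxifene 20.1 µM kept their sign under every pseudocount, filter, scaling, tool and block for strc1 and ENSDARG00000020581. Leaving out 1 library in turn they ran from -1.08 to -0.73 and from -0.95 to -0.49, and from -0.19 to 0.087 for ENSDARG00000030832, whose sign therefore changed. With the replicate block and 1 number left out they ran from -1.02 to -0.80, from -0.77 to -0.53 and from -0.12 to 0.029. strc1 did not reach a level of 50 in at least 5 raloxifene libraries, so it has no value under that filter. A level filter or the block leaves a log2 difference unchanged in this balanced design, so neither could turn a sign. The 20.1 µM contrast chose strc1 and ENSDARG00000020581, so their stable signs support nothing about them. No F test over the 4 lower raloxifene doses or over the resorcinol doses passed under any setting, with the replicate block or without.

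At resorcinol 405 µM the sign was not stable. strc1 was at -0.0054 and turned to 0.032 with quantile normalization, 0.020 with edgeR, 0.016 with DESeq2 and 0.0056 with edgeR and the block. Leaving out 1 library it ran from -0.080 to 0.076, and with the block from -0.094 to 0.074 (0.046 without replicate 5). ENSDARG00000020581 ran from -0.60 to 0.0038 and, with the block, from -0.38 to -0.13. ENSDARG00000030832 ran from -0.063 to 0.19 and, with the block, from -0.013 to 0.11. The fits of edgeR and DESeq2 with the block were chosen after seeing the data, as were the shares and correlations without the 20.1 µM libraries.

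The number of hair cell genes called at raloxifene 20.1 µM was 1, and 3 with the replicate block, 0 with only the 2 groups in the fit, 2 with edgeR and the block and 4 with DESeq2 and the block; the cause was not tested. Leaving out 1 library it ran from 1 to 2, and with the block from 2 to 3. pvalb8 and s100s were called in all 5 block fits that left out a number; s100t was called without replicate 4 or 5 and not without replicate 1, 2 or 3, and without replicate 1 SLC26A5 (prestin) was called higher, at 0.34. At resorcinol 405 µM the number was 0, and 1 with the block, in limma, edgeR or DESeq2; leaving out 1 library it was 0, and with the block 0 to 1. strc1 and ENSDARG00000020581 rest on 16 to 200 reads per library in the raloxifene control and 20.1 µM groups.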
